A study of Homo sapiens with 9 samples.

Results

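The genes described here are 39 genes tied to the transcription factor ATF4: 14 enzymes of amino acid and one-carbon synthesis, 11 genes for transfer RNA (tRNA) synthetases and tRNA export, and 14 stress regulators and effectors. They were taken by gene symbol from the 58735 genes of the deposited expression table, with earlier results of these data known, and all 39 symbols were found there. Expression is given as FPKM, sequenced fragments scaled to gene length and library size, so levels can be compared between genes per length. A gene was tested when its mean reached 0.5 FPKM over all libraries. That left 33 of the 39 genes (10 enzymes, 11 tRNA genes, 12 stress genes) among 13912 genes tested.

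The cells were MDA-MB-231, an established triple-negative breast cancer line with a mesenchymal phenotype, labelled wild type throughout. Recipient cells received plain medium (No CM), medium taken from non-senescent MDA-MB-231 cells (Cont CM), or medium taken from MDA-MB-231 cells driven into therapy-induced senescence by 72 h of nocodazole, a microtubule poison, at 100 ng/ml (TIS CM), with 3 libraries per group. The recipients stayed in their medium for 72 h according to the sample labels and 48 h according to the series text. Donor and recipient are the same line, and nothing states that the 3 libraries of a group came from separate cultures, so the p-values cover the variation among these 9 libraries alone, and that variation may be technical.

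ATF4 is the effector of the integrated stress response. Kinases that sense amino acid shortage, unfolded protein, haem shortage or double-stranded RNA phosphorylate the initiation factor eIF2, which lowers general translation while the ATF4 messenger RNA is translated more. ATF4 then activates genes for amino acid synthesis, uptake and loading onto tRNA, and, with its partner CHOP (DDIT3), genes of stress adaptation and cell death. In cancer cells the same genes supply serine, glycine, proline and one-carbon units for growth. Since ATF4 is controlled largely at translation, the RNA level of ATF4 itself is only part of its regulation.

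Libraries held between 32636708 and 39189036 fragments, recovered from the FPKM. All 7 mesenchymal and basal markers passed 0.5 FPKM, with VIM between 345.4 and 401.4 FPKM in single libraries, and the hormone receptor genes ESR1 and PGR reached at most 0.00801 and 0.00539 FPKM, the profile known of the line. DCN of fibroblasts and NKG7 of immune cells were listed at 0 in every library. Luminal epithelial markers, 5 of 8 at a mean of 0.5 FPKM or more, summed to 263.2 to 288.9 FPKM in No CM, 192.5 to 243.5 in Cont CM and 230.5 to 236.9 in TIS CM; their part in the results was not tested. The summed fibroblast, immune and endothelial markers reached at most 3.98, 5.85 and 1.96 FPKM in any library. The library Cont CM 1 stood apart for these genes: it was the lowest of the 9 libraries for 15 of the 33 tested members (6 of 10 enzymes, 7 of 11 tRNA genes, 2 of 12 stress genes), against 21.5% of all tested genes. It was the highest for 2. Results that Cont CM 1 decides are given with and without it. No CM 1 was the lowest library for 9 of the 33, against 11.7% of all tested genes. These were 1 of 10 enzymes, 2 of 11 tRNA genes and 6 of 12 stress genes (ATF4, DDIT3, TRIB3, CHAC1, SESN2 and CEBPG). No CM 1 enters both comparisons with No CM, and its part in the stress genes' values there was not tested beyond leaving it out. Cont CM 2 had the strongest trend of expression with GC content (r = -0.41 across genes, which are not independent replicates), and its part in the results was examined by removing the trend and by leaving it out.

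**Figure D1:**
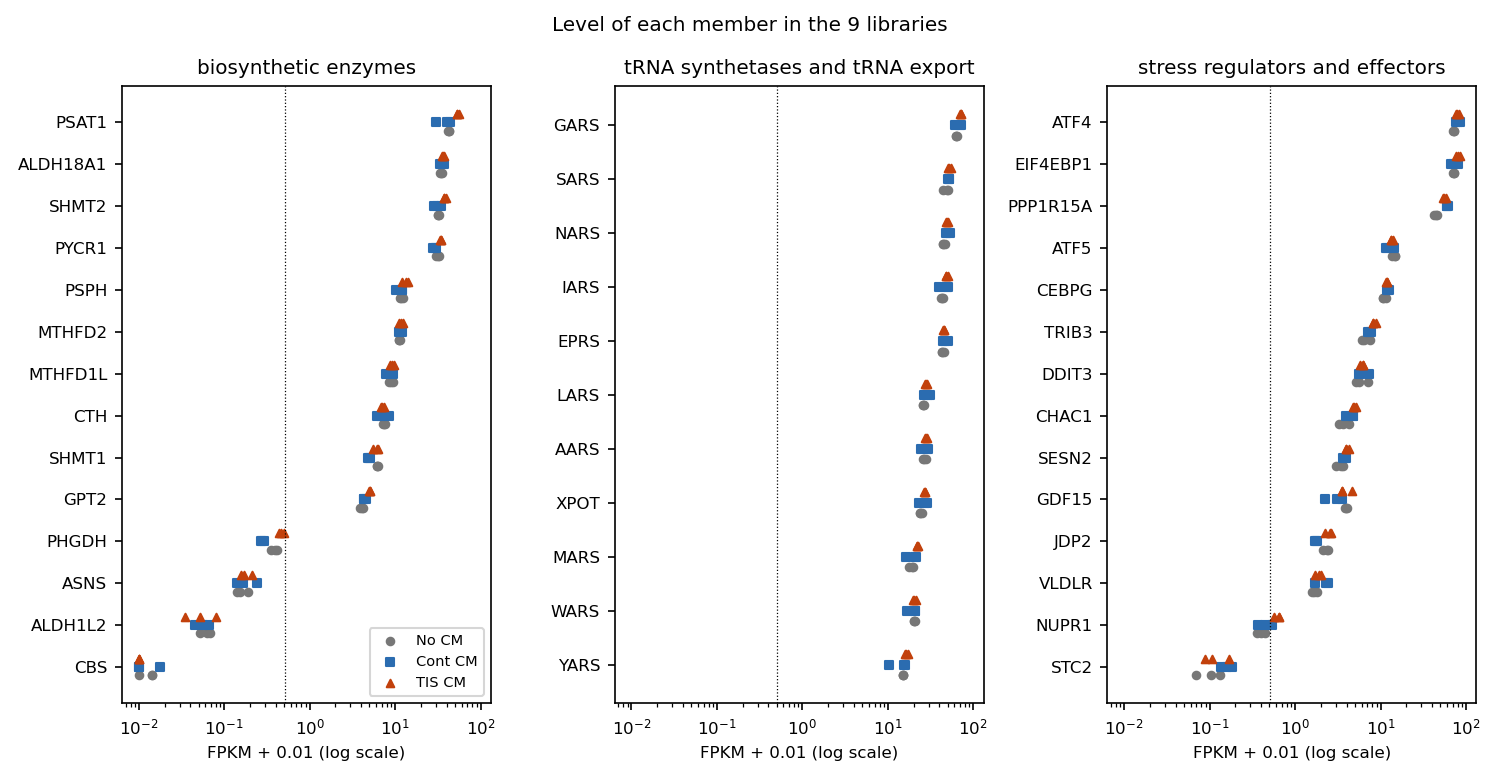
Level of all 39 genes in the 9 libraries, by role, as FPKM + 0.01 on a log axis; each point is 1 library (circles No CM, squares Cont CM, triangles TIS CM) and the dotted line marks the test limit of 0.5 FPKM. The tRNA genes sit within a narrow band, while the enzymes run from PSAT1 down to CBS, and 6 genes have means left of the line.

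The biosynthetic enzymes were the role with the most genes higher in TIS CM than in Cont CM. PSAT1, SHMT2, SHMT1 and PYCR1 rose, 4 of 10 tested enzymes, by 1.17 to 1.43 fold. In RNA from a whole culture, a shift in all cells and a shift in the share of cells that express a gene cannot be told apart. Across all 33 tested members, 5 were called higher (these 4 and the stress gene JDP2) and 0 lower at an adjusted p under 0.05 by limma, where 2.90% of all tested genes were called higher and 1.57% lower. At an unadjusted limma p under 0.05, 8 members were higher and 1 lower, where 12.8% of all tested genes were higher and 10.6% lower. The median log2 fold change was 0.19 over the 10 enzymes, 0.08 over the 33 members and 0.00 over all tested genes. Of all calls in this comparison, 64.8% were higher, and rescaling the FPKM to equal library sums moved that share to 41.8%, quantile normalization to 53.2% and voom on recovered fragments to 54.1%.

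PSAT1 (ENSG00000135069, chr9:78297143-78330093, plus strand, hg38) encodes phosphoserine aminotransferase, the second enzyme of serine synthesis. It stood at 42.5, 42.2 and 41.1 FPKM in No CM, 30.1, 40.9 and 43.6 FPKM in Cont CM, and 53.4, 55.7 and 53.0 FPKM in TIS CM. All 3 TIS CM libraries lay above the other 6, and Cont CM 1 was far below its own group. The log2 fold change from Cont CM to TIS CM was 0.51 (SE 0.11, limma adjusted p = 0.0405). Without Cont CM 1 it was 0.35 (limma adjusted p = 0.00611). Against No CM it was 0.36 (adjusted p = 0.20), with the same value, an SE of 0.04 and an adjusted p of 0.00452 without Cont CM 1. No Cont CM library enters the contrast with No CM. That omission changes the spread estimate and the adjustment, not the fold change, and gives no support for a rise. A fit of the No CM and TIS CM libraries alone also called PSAT1, at 0.36 (limma adjusted p = 0.00752), where 176 of all 13912 tested genes were called higher. These 2 alternatives were the only ones that called it against No CM.

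SHMT2 and SHMT1 encode the mitochondrial and the cytosolic serine hydroxymethyltransferase, which turn serine into glycine and hand a one-carbon unit to folate. SHMT2 (ENSG00000182199, chr12:57229327-57234935, plus strand) measured 31.8, 32.7 and 31.8 FPKM in No CM, 28.7, 31.3 and 34.1 in Cont CM, and 39.5, 37.3 and 37.5 in TIS CM. The TIS CM libraries again lay above all 6 others, by a log2 fold change of 0.28 over Cont CM (SE 0.06, limma adjusted p = 0.0339). Against No CM it gave 0.24 (limma adjusted p = 0.11), which passed without Cont CM 1 (0.24, adjusted p = 0.022). Cont CM 1 does not enter that contrast, so its omission changes the spread estimate and the adjustment alone and gives no support for a rise. SHMT2 was also called against No CM when the No CM and TIS CM libraries alone were fitted (0.24, limma adjusted p = 0.0217). With voom on recovered fragments it was called as well (0.23, adjusted p = 0.0448). No other alternative called it there. SHMT1 (ENSG00000176974, chr17:18327860-18363563, minus strand) followed another order: 6.19, 6.14 and 6.25 FPKM in No CM, 5.04, 4.77 and 4.90 in Cont CM, and 6.31, 5.46 and 6.06 in TIS CM. Its Cont CM libraries were the low group, below all 6 others, while No CM and TIS CM overlapped. In Cont CM against No CM, SHMT1 had a log2 fold change of -0.31 (SE 0.05, limma adjusted p = 0.00681), and in TIS CM against Cont CM it had 0.25 (SE 0.05, adjusted p = 0.0396); both comparisons use the same Cont CM libraries. SHMT2 was thus set apart by its TIS CM libraries and SHMT1 by its Cont CM libraries.

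PYCR1 (ENSG00000183010, chr17:81932384-81942412, minus strand) encodes the pyrroline-5-carboxylate reductase that completes proline synthesis in mitochondria. Its level was 29.7, 32.1 and 32.5 FPKM in No CM, 29.6, 27.7 and 29.9 in Cont CM, and 33.2, 34.6 and 34.5 in TIS CM. TIS CM was above both other groups without overlap, and No CM and Cont CM overlapped. The log2 fold change over Cont CM was 0.23 (SE 0.05, limma adjusted p = 0.0325), and it fell to 0.12 (adjusted p = 0.095) once trends with GC content and gene length were removed from each library. In GENCODE 29, 29.7% of its exonic bases lie in exons of other genes, and the antisense gene AC145207.4 is listed at 5.18 FPKM. ALDH18A1, which makes the precursor that PYCR1 reduces, ranged from 33.1 to 37.2 FPKM over the 9 libraries with a log2 fold change of 0.03 (95% interval -0.08 to 0.14).

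GPT2 (ENSG00000166123, chr16:46884378-46931297, plus strand), the mitochondrial alanine aminotransferase, was the only enzyme called in TIS CM against No CM in the main fit. It measured 3.87, 4.08 and 4.25 FPKM in No CM, 4.33, 4.28 and 4.52 in Cont CM, and 5.04, 5.13 and 4.92 in TIS CM. The 3 groups did not overlap. Against No CM the log2 fold change was 0.28 (SE 0.05, limma adjusted p = 0.0438), and against Cont CM it was 0.18 (adjusted p = 0.0701), which missed the threshold. GPT2 did not have the largest change against No CM: PSAT1 had 0.36 and SHMT2 0.24, neither called in the main fit. A fit of the No CM and TIS CM libraries alone called GPT2, PSAT1 and SHMT2.

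These enzyme calls rest on few libraries. PSAT1 in TIS CM against Cont CM lost its call on leaving out any No CM library (adjusted p 0.063 to 0.065), Cont CM 2 (0.0738) or any TIS CM library (0.109 to 0.125), although no No CM library enters that contrast. SHMT2 lost it with the same omissions (0.0547 to 0.123), SHMT1 with every omission other than Cont CM 1 (0.0578 to 0.129), and PYCR1 without No CM 2, Cont CM 2 or any TIS CM library (0.0526 to 0.115). With the GC content and length trend removed, SHMT2 (0.21, adjusted p = 0.0984) and SHMT1 (0.24, 0.0633) also lost it and PSAT1 kept it. GPT2 against No CM kept its call only without Cont CM 1 (0.0509 to 0.171 for the 8 others). By contrast, SHMT1 in Cont CM against No CM kept its call under all 12 alternative settings and all 9 omissions, with log2 fold changes between -0.35 and -0.28.

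The other 5 tested enzymes passed no test in any comparison. PSPH, the last enzyme of serine synthesis, ranged from 10.3 to 14.0 FPKM with a log2 fold change of 0.20 in TIS CM against Cont CM (limma adjusted p = 0.13). Its near-identical copy PSPHP1 is listed at a mean of 21.6 FPKM, so the split of reads between them is uncertain. MTHFD2 and MTHFD1L, which carry one-carbon units through mitochondrial folate, had log2 fold changes of 0.03 (95% interval -0.08 to 0.15) and 0.06 (-0.11 to 0.22). CTH, which releases cysteine from cystathionine, had 0.00 (-0.20 to 0.20).

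Of the enzymes, 4 lay below the test limit. PHGDH (ENSG00000092621, chr1:119648411-119744226, plus strand), the first and committed enzyme of serine synthesis, is known to be little expressed in this line. It was listed at 0.38, 0.34 and 0.40 FPKM in No CM, 0.26, 0.28 and 0.27 in Cont CM, and 0.43, 0.50 and 0.45 in TIS CM, from 78 to 165 fragments per library. The 3 groups did not overlap, in the order Cont CM, No CM, TIS CM; in the limma fit without a filter the log2 fold change of TIS CM over Cont CM was 0.32 (adjusted p = 0.0856), which missed the threshold. The mean over the 9 libraries was 0.367 FPKM for PHGDH against 44.7 FPKM for PSAT1, the next enzyme of the same pathway.

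ASNS (ENSG00000070669, chr7:97852118-97872542, minus strand), asparagine synthetase and one of the best known ATF4 targets, was listed at 0.18, 0.14 and 0.13 FPKM in No CM, 0.16, 0.13 and 0.23 in Cont CM, and 0.15, 0.16 and 0.20 in TIS CM. The groups overlapped fully, at 20 to 41 fragments per library. In GENCODE 29, 44.6% of its exonic bases also lie in exons of AC079781.5, a transcript on the same strand listed at 0.178 FPKM, and how reads in the shared exons were counted was not stated in the sources used. ALDH1L2, a mitochondrial folate enzyme, was listed at 0.02 to 0.07 FPKM. CBS, which makes cystathionine, was listed at 0 in 6 of 9 libraries with at most 2 fragments, and has a near-identical copy, CBSL.

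**Figure D2:**
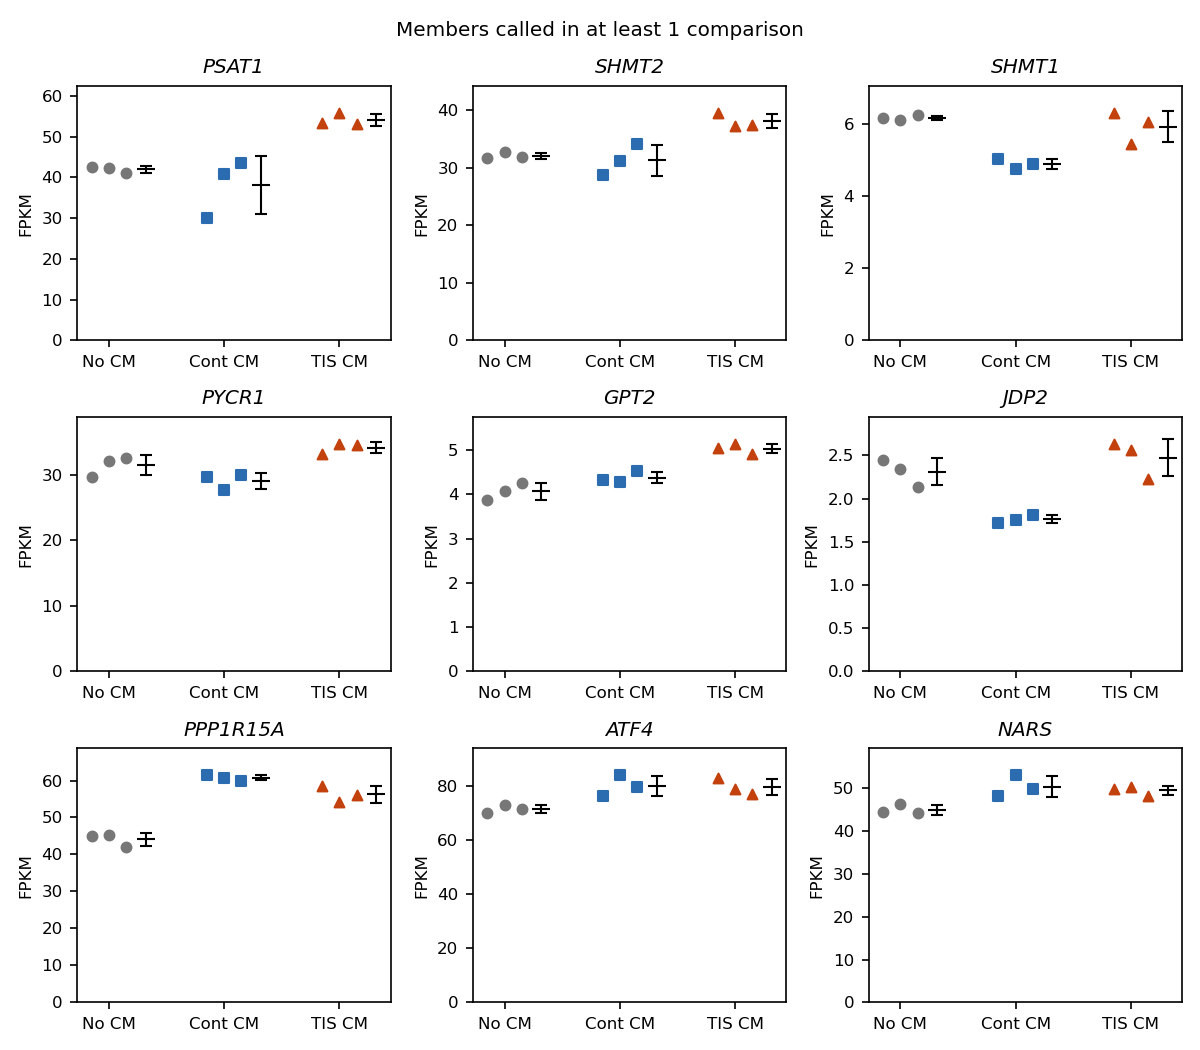
FPKM of the 9 genes called in at least 1 comparison, 1 point per library, with the group mean and SD (n = 3) as a black mark and bar beside the points. The TIS CM points lie above both other groups for PSAT1, SHMT2, PYCR1 and GPT2, the Cont CM points are lowest for SHMT1 and JDP2, and the No CM points are lowest for PPP1R15A, ATF4 and NARS.

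The tRNA genes load amino acids onto tRNA, 1 synthetase for each amino acid with EPRS carrying both glutamate and proline, and XPOT moves tRNA out of the nucleus. None of the 11 was called in TIS CM against Cont CM by limma (0 also at an unadjusted p under 0.05, and 0 with voom on recovered fragments), with a median log2 fold change of 0.03. Without Cont CM 1 the median was -0.05, again with 0 called, and LARS and EPRS were lower at an unadjusted p under 0.05 (-0.12 and -0.10). In Cont CM against No CM, NARS rose, 1 of 11, and 0 fell. Over all 33 members in that comparison 3 rose and 2 fell, where 7.77% of all tested genes were called higher and 8.56% lower. The median log2 fold change over the tRNA genes was 0.09, over all tested genes 0.00.

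NARS (ENSG00000134440, chr18:57600656-57622213, minus strand), the asparaginyl-tRNA synthetase, measured 44.5, 46.2 and 44.1 FPKM in No CM, 48.1, 52.9 and 49.8 in Cont CM, and 49.7, 50.3 and 48.2 in TIS CM. No CM was below all 6 libraries of conditioned medium, which overlapped each other. The log2 fold change of Cont CM over No CM was 0.16 (SE 0.04, limma adjusted p = 0.0331). It lost its call in 7 of the 9 omissions, any No CM library, Cont CM 2, Cont CM 3, TIS CM 1 and TIS CM 2 (adjusted p 0.0508 to 0.112).

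Of the 11 tRNA genes, 7 had their lowest level in Cont CM 1. YARS, the tyrosyl-tRNA synthetase, was at 10.2 FPKM in Cont CM 1 and between 14.9 and 17.0 FPKM in the other 8 libraries. The mean deviation of the 11 tRNA genes from their own means was -0.17 on the log2 scale in Cont CM 1, 0.10 in Cont CM 2 and 0.07 in Cont CM 3, against -0.08, -0.03 and -0.07 in the No CM libraries. Without Cont CM 1, 7 of the 11 tRNA genes rose in Cont CM against No CM (GARS, IARS, LARS, MARS, EPRS, NARS and XPOT), with a median of 0.16. That library was singled out because these genes were low in it, so its omission raises their Cont CM means by construction and gives no support for a rise. Without Cont CM 2 or Cont CM 3, 0 of the 11 were called, with medians of 0.04 and 0.06. Over all 33 members, the fit without Cont CM 1 called 11 higher and 4 lower. In that fit, in which Cont CM keeps 2 libraries, 9.57% of all tested genes were called higher and 10.3% lower. Among the 7 tRNA genes called without Cont CM 1, the export gene XPOT had the largest change, 0.21 (SE 0.04, limma adjusted p = 0.00698). LARS, for leucine, had 0.21 (SE 0.04, adjusted p = 0.0106).

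The other tRNA genes spanned 60.6 to 72.7 FPKM for GARS, the most abundant and specific for glycine, and 16.5 to 22.6 FPKM for MARS, specific for methionine. MARS had the largest log2 fold change of the role in TIS CM against No CM, 0.24 (limma adjusted p = 0.266). None of the 11 was called there, and 0 with voom. At an unadjusted limma p under 0.05, 3 were higher and 0 lower, where 7.40% of all tested genes were higher and 6.17% lower. All 11 had a log2 fold change above 0, with a median of 0.13, where 7121 of all 13912 tested genes lay above 0. The 11 genes were measured in the same libraries, so they are not independent of each other. Without Cont CM 1, GARS and MARS were called in that comparison (limma adjusted p = 0.0271 and 0.0237), among 6 members called higher where 1.40% of all tested genes were. Cont CM 1 does not enter that comparison and its omission left both fold changes the same, so these calls give no support for a rise. A fit of the No CM and TIS CM libraries alone also called GARS and MARS (limma adjusted p = 0.0385 and 0.0414), where 176 of all 13912 tested genes were called higher. MARS shares part of its exons with ARHGAP9 and DDIT3 on the opposite strand.

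**Figure D3:**
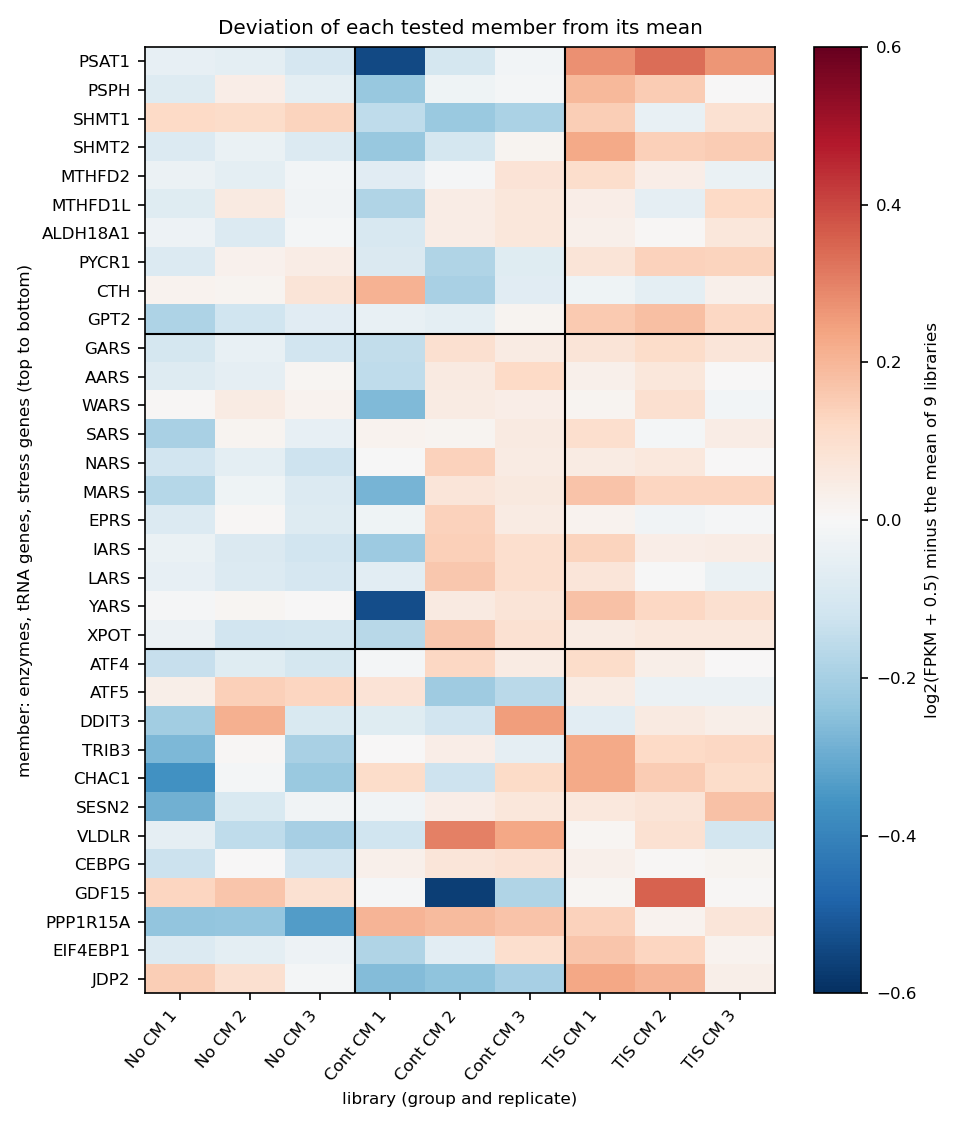
Deviation of each of the 33 tested genes from its mean over the 9 libraries, log2(FPKM + 0.5), with libraries in columns and genes in rows by role (black lines separate groups and roles). The Cont CM 1 column is blue for most enzymes and tRNA genes. The tRNA genes lie above their means in Cont CM 2 and Cont CM 3. The enzymes lie below theirs on average in Cont CM 2 as well (mean deviation -0.08).

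Among the stress genes, PPP1R15A and ATF4 rose in Cont CM against No CM and JDP2 fell, 3 of 12 tested, where 7.77% of all tested genes were called higher and 8.56% lower, with a median log2 fold change of 0.15. In TIS CM against Cont CM only JDP2 was called, higher, with a median of 0.08. In TIS CM against No CM only PPP1R15A was called, higher, with a median of 0.14. Over all 33 members, TIS CM against No CM gave 2 higher (GPT2 and PPP1R15A) and 0 lower by limma, where 0.403% of all tested genes were called higher and 0.453% lower. At an unadjusted p under 0.05 it gave 14 higher and 0 lower, where 7.40% of all tested genes were higher and 6.17% lower, with a median of 0.13 over the 33 members and 0.00 over all tested genes. The 3 comparisons share groups with each other, so their values are not independent.

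ATF4 (ENSG00000128272, chr22:39519695-39522685, plus strand) had the highest mean of the 39 genes, 77.2 FPKM. It stood at 70.0, 73.2 and 71.7 FPKM in No CM, 76.5, 84.1 and 79.8 in Cont CM, and 83.2, 79.0 and 77.3 in TIS CM. Both conditioned media lay above No CM and overlapped each other. The log2 fold change over No CM was 0.16 in Cont CM (SE 0.04, limma adjusted p = 0.041) and 0.15 in TIS CM (adjusted p = 0.174). Between TIS CM and Cont CM it was -0.01 (95% interval -0.11 to 0.10). The call in Cont CM was lost in 7 of the 9 omissions (adjusted p 0.0563 to 0.117), all except Cont CM 1 and TIS CM 1.

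PPP1R15A (ENSG00000087074, chr19:48872392-48876057, plus strand), also called GADD34, brings protein phosphatase 1 to eIF2 and thereby reverses the phosphorylation that starts the response. It measured 45.0, 45.2 and 42.0 FPKM in No CM, 61.4, 60.8 and 60.0 in Cont CM, and 58.6, 54.1 and 56.0 in TIS CM. The 3 groups did not overlap, and Cont CM was the highest. The log2 fold change over No CM was 0.46 in Cont CM (SE 0.04, limma adjusted p = 0.000324) and 0.35 in TIS CM (SE 0.04, adjusted p = 0.0141), and TIS CM against Cont CM gave -0.11 (adjusted p = 0.156). The Cont CM call stood in all 12 alternative settings and all 9 omissions, between 0.42 and 0.54. The TIS CM call was lost without No CM 1, No CM 3, TIS CM 1 or TIS CM 3 (adjusted p 0.0551 to 0.0725).

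JDP2 (ENSG00000140044, chr14:75427716-75474111, plus strand) encodes a small leucine zipper protein that dimerizes with Jun and ATF family members and mostly represses. It measured 2.45, 2.34 and 2.14 FPKM in No CM, 1.72, 1.75 and 1.82 in Cont CM, and 2.63, 2.56 and 2.23 in TIS CM. Cont CM was the low group, below all 6 others, and No CM and TIS CM overlapped. The log2 fold change was 0.39 in TIS CM against Cont CM (SE 0.07, limma adjusted p = 0.0261) and -0.31 in Cont CM against No CM (SE 0.07, adjusted p = 0.0222). The first was lost without Cont CM 2, TIS CM 1 or TIS CM 2 (adjusted p 0.0742 to 0.106), the second without No CM 1, No CM 2 or Cont CM 2 (0.0552 to 0.072). JDP2 shared with SHMT1 the order in which Cont CM was lowest.

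DDIT3 and CHAC1, classical readouts of the response, were not called in any comparison. DDIT3 (ENSG00000175197, chr12:57516588-57521737, minus strand), which encodes CHOP, was at 5.15, 7.07 and 5.62 FPKM in No CM, 5.71, 5.53 and 7.26 in Cont CM, and 5.75, 6.27 and 6.18 in TIS CM. The groups overlapped completely, and the log2 fold change in TIS CM against Cont CM was -0.01 (95% interval -0.29 to 0.26). In GENCODE 29, 39.6% of its exonic bases lie in exons of other genes, chiefly MARS on the opposite strand, and reads of the overlap cannot be told apart, since strand use was not stated. CHAC1 (ENSG00000128965, chr15:40952962-40956519, plus strand), a glutathione-degrading enzyme induced through ATF4, was at 3.27, 4.31 and 3.67 FPKM in No CM, 4.74, 3.96 and 4.76 in Cont CM, and 5.19, 4.89 and 4.74 in TIS CM. All TIS CM libraries were above all No CM libraries, with a log2 fold change of 0.36 (95% interval 0.14 to 0.58, limma adjusted p = 0.146), which missed the threshold. It gave 0.23 in Cont CM against No CM (adjusted p = 0.137), and 0.32 (adjusted p = 0.0273) with the GC content and length trend removed.

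The other tested stress genes were not called in any comparison. TRIB3, a pseudokinase that restrains ATF4 and AKT, ranged from 6.10 to 8.81 FPKM and gave 0.31 in TIS CM against No CM (limma adjusted p = 0.101). SESN2, a leucine sensor that restrains mTORC1, gave 0.24 (adjusted p = 0.20), and EIF4EBP1, the mTORC1-controlled brake on cap-dependent translation, gave 0.16 (adjusted p = 0.34). CEBPG, the C/EBP partner of ATF4, gave 0.14 in Cont CM against No CM (adjusted p = 0.0519). VLDLR, a lipoprotein receptor, gave 0.27 in Cont CM against No CM (adjusted p = 0.132), and ATF5, a transcription factor translated under stress like ATF4, gave -0.20 (adjusted p = 0.0971), with 23.7% of its exonic bases in other genes, chiefly NUP62 on the opposite strand. GDF15, a secreted stress cytokine, ranged from 2.22 to 4.64 FPKM; it gave -0.38 in Cont CM against No CM (adjusted p = 0.0988) and 0.38 in TIS CM against Cont CM (adjusted p = 0.151). With the GC content and length trend removed, TRIB3 and SESN2 were called higher in Cont CM against No CM (0.25 and 0.25, adjusted p = 0.046 and 0.0447), and TRIB3 was called higher in that comparison and in TIS CM against No CM without No CM 2 (adjusted p = 0.041 and 0.0468). Without No CM 2, CEBPG was also called higher in Cont CM against No CM (0.18, adjusted p = 0.0271). Without Cont CM 1, CEBPG and VLDLR were called higher in Cont CM against No CM and ATF5 and GDF15 lower. Below the test limit, NUPR1, a chromatin-associated stress protein, was listed at 0.35 to 0.64 FPKM, and STC2, a secreted glycoprotein, at 0.06 to 0.17 FPKM.

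**Figure D4:**
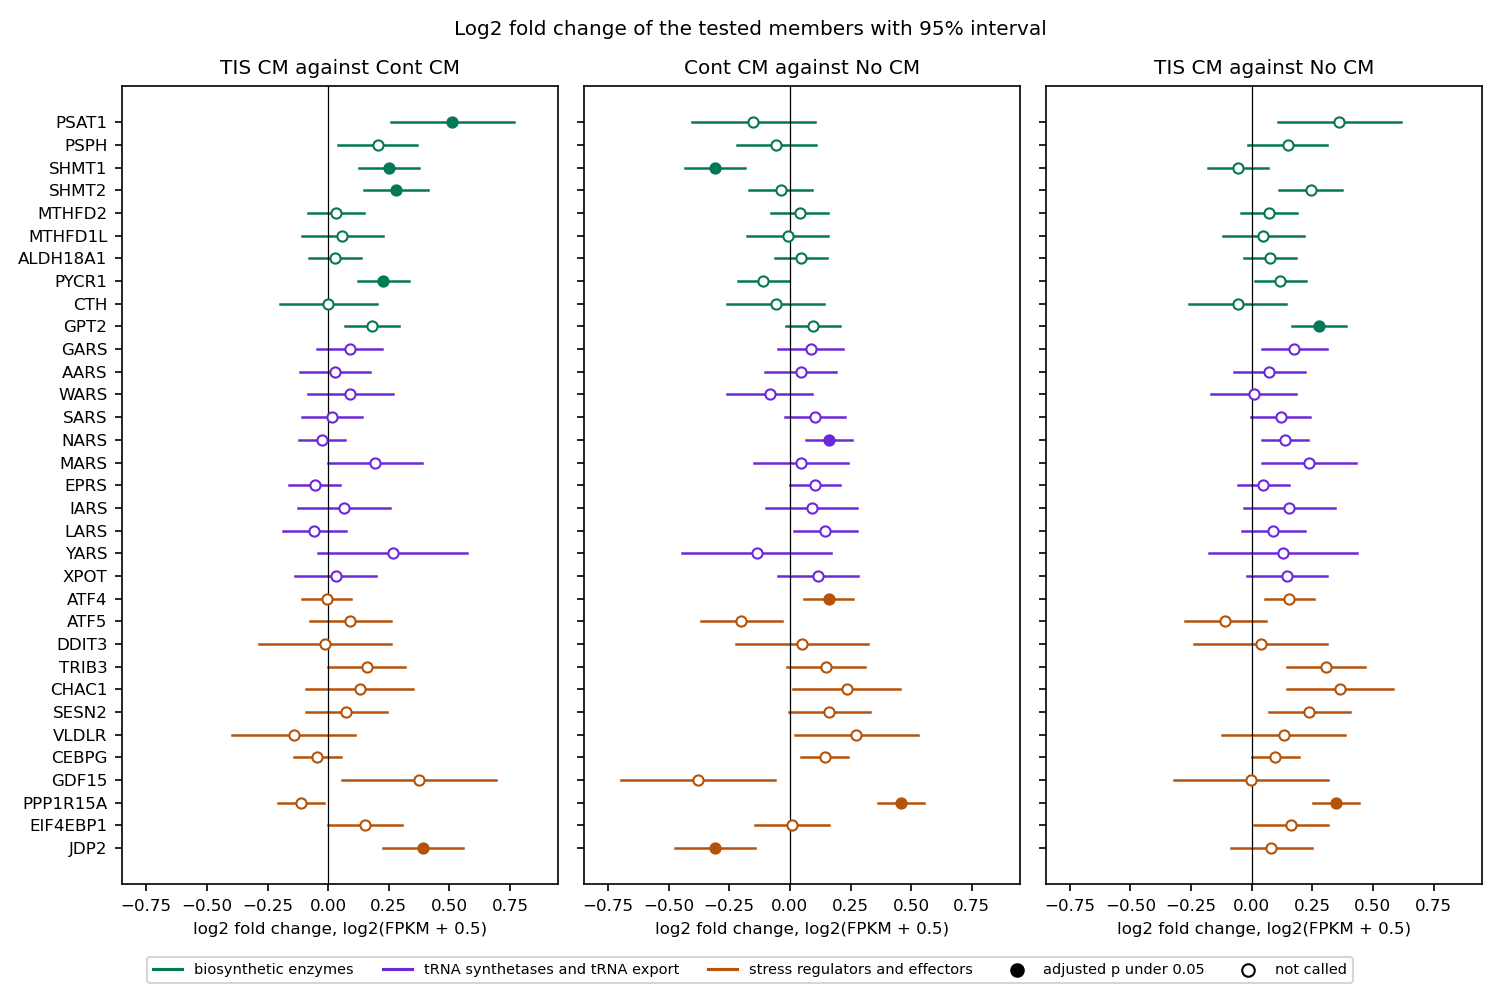
Log2 fold change of the 33 tested genes with its 95% interval in the 3 comparisons, coloured by role; filled points passed an adjusted p of 0.05. The filled points are 5 above 0 in TIS CM against Cont CM, 3 above and 2 below in Cont CM against No CM, and 2 above in TIS CM against No CM.

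The promoters of these genes were searched for the C/EBP-ATF response element, the composite site at which ATF4 pairs with a C/EBP protein, as the letters TGATGNAAN on either strand in the 250 bases before each RefSeq start (GRCh38.p14). Of the 39 genes, 30 matched the promoter table. The letters were found for 8 (ASNS, MTHFD1L, GARS, AARS, IARS, CHAC1, CEBPG and JDP2), or 26.7%, against 3.87% of all 27305 genes with a promoter in the table and 2.12% of the 9422 matched by symbol among the tested genes. The members were picked as ATF4-linked genes, so the higher share is a property of that choice. Of the 6 matched genes called in any comparison, JDP2 alone held the letters. The cyclic AMP response element, TGACGTCA, was added after the values were seen. Among the 30 matched members it was found in PPP1R15A alone, 3.33%, near the 3.52% of the tested genes matched by symbol, so nothing is read from it. A match is a description of letters and not a bound site. The windows show the element in capitals for JDP2, the called gene that holds the first motif, for CEBPG, the partner gene that also holds it, and for PPP1R15A, whose call in Cont CM against No CM stood in every setting; each runs 5′ to 3′ on the plus strand.
JDP2, chr14:75427976-75428021: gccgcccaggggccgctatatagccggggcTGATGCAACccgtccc
CEBPG, chr19:33374041-33374109: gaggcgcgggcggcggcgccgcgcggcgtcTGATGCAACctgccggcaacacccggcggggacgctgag
PPP1R15A, chr19:48872333-48872400: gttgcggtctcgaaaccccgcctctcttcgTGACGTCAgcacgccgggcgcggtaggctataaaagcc
JDP2 and CEBPG carry the same 9 letters; JDP2 fell in Cont CM against No CM, and CEBPG gave 0.14 there and did not pass.

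The wider pathway was followed through 8 further lists. Of 10 tested amino acid transporters of the ATF4 programme, 3 rose in TIS CM against Cont CM and 0 fell. The shares to set beside this and the following lists are those of all tested genes: 2.90% higher and 1.57% lower in TIS CM against Cont CM, 7.77% and 8.56% in Cont CM against No CM, and 0.403% and 0.453% in TIS CM against No CM. Several of the counts lie near them, and nothing particular to a list is read from its count. SLC7A5, the leucine importer, averaged 95.01 FPKM ± 2.20 (SD, n = 3) under No CM, 69.0 ± 3.94 with Cont CM and 89.0 ± 2.19 with TIS CM, with a log2 fold change of 0.37 over Cont CM (limma adjusted p = 0.00997). SLC1A5, a glutamine and neutral amino acid carrier, gave 0.36 (adjusted p = 0.00731) and SLC1A4, its serine and alanine relative, gave 0.42 (adjusted p = 0.0382). In Cont CM against No CM, SLC7A5 (-0.46, adjusted p = 0.000457) and SLC1A5 (-0.21, adjusted p = 0.0085) fell, while the cystine carrier SLC7A11 (0.45, adjusted p = 0.00577) and the arginine carrier SLC7A1 (0.18, adjusted p = 0.0242) rose. SLC7A11 also rose in TIS CM against No CM (0.48, adjusted p = 0.0345), the only 1 of 10 called there. The falls and the rise of SLC7A5 and SLC1A5 use the same Cont CM libraries.

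Of 9 tested further ATF4 or CHOP targets, DDIT4, an inhibitor of mTORC1, rose in TIS CM against Cont CM (0.43, limma adjusted p = 0.0455) and ATF3, a stress-induced transcription factor, fell (-0.32, adjusted p = 0.0331). The signs were opposite in Cont CM against No CM, with DDIT4 at -0.72 (adjusted p = 0.0022) and ATF3 at 0.29 (adjusted p = 0.0187). CEBPB, a C/EBP factor, rose in TIS CM against No CM (0.27, adjusted p = 0.0412). Of 10 other cytosolic synthetases, TARS (0.36, adjusted p = 0.00239) and HARS (0.16, adjusted p = 0.0149), for threonine and histidine, rose in Cont CM against No CM, and QARS, for glutamine, fell (-0.19, adjusted p = 0.0197). QARS was the 1 of these 10 called in TIS CM against Cont CM, higher (0.19, adjusted p = 0.0446). Of 17 mitochondrial synthetases, 0 were called by limma in TIS CM against Cont CM or in TIS CM against No CM (2 higher at an unadjusted p under 0.05 in the first, 1 higher and 1 lower in the second, and 0 with voom in both).

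Upstream, of 15 eIF2 kinases and eIF2 machinery genes, EIF2AK4, the kinase GCN2 that senses uncharged tRNA, rose in Cont CM against No CM (0.20, limma adjusted p = 0.0244). In TIS CM against Cont CM 0 of 15 were called by limma (1 higher at an unadjusted p under 0.05, 0 with voom), with a median log2 fold change of -0.03. Of 13 other folate and methionine cycle genes, AHCY, which clears S-adenosylhomocysteine, rose in TIS CM against Cont CM (0.16, adjusted p = 0.0498). MTR, methionine synthase, rose (0.18, adjusted p = 0.0346) and TYMS, thymidylate synthase, fell (-0.18, adjusted p = 0.0218) in Cont CM against No CM. Of 15 other amino acid genes, ASS1, argininosuccinate synthase of arginine synthesis, fell in Cont CM against No CM (-0.48, adjusted p = 0.00249), as did ALDH4A1 of proline breakdown (-0.38, adjusted p = 0.0083). None of the 15 was called in TIS CM against Cont CM by limma (3 higher at an unadjusted p under 0.05, 1 higher with voom).

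The chaperone list marks the neighbouring unfolded protein branches, XBP1 and ATF6. Of its 16 genes, SDF2L1 (0.50, limma adjusted p = 0.017) and CRELD2 (0.36, adjusted p = 0.0444), both endoplasmic reticulum proteins, rose in TIS CM against Cont CM and 0 fell, with a median log2 fold change of 0.15. In Cont CM against No CM, DNAJB9 (0.29, adjusted p = 0.037), a co-chaperone, rose and 3 fell: CRELD2 (-0.39, adjusted p = 0.0133), the calcium-binding chaperone CALR (-0.31, adjusted p = 0.0458) and SYVN1 (-0.16, adjusted p = 0.0179), a ligase of endoplasmic reticulum degradation. With voom on recovered fragments 7 of the 16 fell in that comparison, where 1532 of all 13912 tested genes did. The median over the 16 by limma was -0.17 there. In TIS CM against No CM 0 of 16 were called by limma (1 higher at an unadjusted p under 0.05, 0 with voom), with a median of -0.01.

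Of the calls in these further lists, those of SLC7A11, SLC7A5, DDIT4, TARS, ASS1 and ALDH4A1 in Cont CM against No CM stood in all 12 alternative settings and all 9 omissions. The other named calls in that comparison held less often. SLC1A5 kept its call in all 9 omissions and in 10 settings. Over the 9 omissions, CRELD2 kept it in 8, ATF3, HARS and SYVN1 in 7, and QARS and TYMS in 6. SLC7A1 kept it in 5, EIF2AK4 in 4, CALR and DNAJB9 in 3, and MTR in 2. In TIS CM against Cont CM, SLC1A5 kept its call in 8 of 9 omissions, SLC7A5 in 7, and SDF2L1 in 5, whereas ATF3 kept it in 3, SLC1A4 and DDIT4 in 2, CRELD2 in 1, and QARS and AHCY in 0. CEBPB kept its call in TIS CM against No CM in 3 omissions and SLC7A11 in 2.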

How the data were processed

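Messenger RNA of 9 MDA-MB-231 libraries was captured on poly-T beads and sequenced, per the labels' protocols. Build hg38 and the tools DESeq2 1.20.0, featureCounts 1.5.0-p3, HISAT2 2.0.5 and fastp are named, without roles, in the submitters' processing notes. The authors deposited FPKM per gene and library; strand use and the treatment of reads shared by genes were not stated in the sources used. Multiplied by gene length, 100% of values were whole multiples of 1 step per library (within 0.01), which gave the fragments and the depth.

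Genes with a mean of at least 0.5 FPKM were fitted with limma 3.58.1 (R 4.3.3) on log2(FPKM + 0.5), a scale that understates the change of low genes, over all 9 libraries and 3 groups with an intensity trend. P-values were adjusted by Benjamini-Hochberg over the 13912 genes tested, and an adjusted p under 0.05 was called. Intervals are 95%. The method was tested on simulated data. Gene positions are those of the deposited table (hg38), exon overlaps come from GENCODE 29, and promoters from RefSeq. Figures used matplotlib 3.10.9.

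The members and lists were chosen with earlier results of these data known, so nothing here is independent support for them. Full values are printed for members called in any comparison and for ATF4, DDIT3, ASNS, PHGDH, PSAT1 and CHAC1, and up to 3 called genes per other list and direction are named. Alternatives were other pseudocounts, filters, scalings, gene sets and sample sets, voom on recovered fragments, removal of GC content and length trends, a replicate block, and omission of each library. Results that need items withheld for evaluation are not reported here.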

Additional observations from a re-analysis of the deposited data

How the results depend on the processing

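Of the 99 tests of a member in a comparison, 12 were called and none of these reversed its sign in any of 12 alternative settings or 9 omissions of a library; of the 87 others, 18 were called in at least 1. Members called higher in TIS CM against Cont CM numbered 5, and 0 with no filter, 0 with only the 2 groups compared, 3 with FPKM rescaled to equal library sums, 2 with the GC content and length trend removed, 0 with a replicate block and 0 with both. All genes called higher there numbered 404, and 128 with no filter, 23 with only the 2 groups and 284 with rescaled sums. They numbered 106 with the trend removed, 95 with the block and 9 with both. In Cont CM against No CM, 3 were higher, and 1 with no filter, 1 with rescaled sums, 1 with only the 2 groups, and 6 with the trend removed. In the same comparison 2 were lower, and 1 with no filter. All genes called higher there numbered 1081, and 741 with no filter, 862 with rescaled sums, 573 with only the 2 groups and 992 with the trend removed. Those lower numbered 1191, and 792 with no filter. In TIS CM against No CM, 2 members were higher, and 1 with no filter, 1 with rescaled sums, 6 with only the 2 groups, 0 with a replicate block and 0 with the block and the trend removed. All genes called higher there numbered 56, and 23 with no filter, 28 with rescaled sums and 176 with only the 2 groups. They numbered 2 with the block and 2 with the block and the trend removed. With no filter, 29649 genes entered the adjustment; other causes were not tested. Members called lower in TIS CM against Cont CM or against No CM numbered 0 in all of these settings and omissions. Leaving out each library gave 0 to 5 higher in TIS CM against Cont CM, 1 to 11 higher and 1 to 4 lower in Cont CM against No CM, and 0 to 6 higher in TIS CM against No CM.

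Over all tested genes, calls in TIS CM against Cont CM (404 higher, 219 lower) ranged from 7 to 675 and from 3 to 510 over the alternatives. In Cont CM against No CM (1081 and 1191) they ranged from 492 to 1332 and from 583 to 1532, and in TIS CM against No CM (56 and 63) from 2 to 195 and from 2 to 171. Deviations of libraries with the same replicate number correlated between -0.19 and 0.08 across genes, so the numbers were not taken as pairs. In the 6 genes below 0.5 FPKM, counts of at most 165 fragments limit what can be seen.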
